A study of Mus musculus with 12 samples.

Results

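The genes Jun, Junb, Jund, Fosb, Fosl1 and Fosl2 were followed as the members of the AP-1 transcription factor family other than Fos. They were chosen by name, with no measured value, and are 6 of the 21887 protein-coding genes on the chromosomes of the RefSeq table. The assay was ATAC-seq, which reads open chromatin from where a transposase can cut into DNA, and a peak is a stretch with more cuts than its surroundings. Every library came from 50000 cells sorted for Arc and NeuN together, from infralimbic prefrontal cortex pooled over 5 male C57BL/6 mice of 10 to 12 weeks. NeuN marks neurons and Arc marks those that were recently active, so the sort aimed at recently active neurons in both groups. Open promoters of other cell types were also found, as given below. All mice, controls included, had been fear-conditioned with 3 pairings of a tone and a foot shock. On the following day the extinction group (EXT) heard the tone 60 times in a second context, while the retention control group (RC) stayed there for as long without tones, and tissue was taken directly afterwards. The AP-1 genes are reached by 1 control list, that of RC replicate 3 (called RC3 from here), and by those of EXT replicates 1 and 2 (EXT1 and EXT2). RC is thus represented by 1 pool of mice, and 3 values in a row below are those of RC3, EXT1 and EXT2 in that order. The lists of RC replicates 1 and 2, as held here, end within chromosome 1, where none of the 6 genes lies, and EXT replicate 3 was not analysed here.

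AP-1 factors are dimers held together by a leucine zipper, with an adjoining basic stretch that grips DNA. Jun proteins pair with each other or with Fos proteins, whereas Fos proteins need a partner from outside their own family. In neurons many AP-1 genes are immediate early genes, switched on by calcium and kinase signals within minutes of activity, and the resulting factors bind promoters and enhancers of later genes. ATAC-seq reads whether DNA at these genes is open, not whether they are transcribed.

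The 3 lists held 97961, 80735 and 123375 peaks from 73835799, 65002147 and 57663722 tags. The neuronal genes Snap25, Syt1, Tubb3 and Map2 had a promoter peak in every list, whereas Rbfox3, the gene of NeuN, had one in EXT2 only, at the bottom of that list (0.094th percentile by fold enrichment). Arc had a promoter peak in all 3 lists, at the 9.0th, 1.4th and 42.4th percentile. All 4 excitatory neuron genes examined had one in every list, whereas of 4 inhibitory neuron genes only Lhx6 had one, and Gad1, Gad2 and Slc32a1 had none. Lhx6 stood high, at the 94.7th, 87.9th and 80.8th percentile, whereas the medians of the excitatory genes were 46.9, 33.8 and 55.6. The oligodendrocyte gene Mog, the astrocyte genes Gfap and Aqp4 and the microglial genes Cx3cr1 and P2ry12 had none in any list. Open promoters of other cell types were nevertheless present: 2, 2 and 3 of 6 oligodendrocyte genes, 1 of 5 astrocyte genes in each list, 1, 2 and 1 of 5 microglial genes and 2, 1 and 2 of 5 endothelial genes had a promoter peak, with Olig1 at the 99.9th, 99.9th and 96.9th percentile. The oligodendrocyte gene Sox10 (85.6, 78.1 and 35.4) and the astrocyte gene Sox9 (94.0, 94.2 and 43.0) stood lower in EXT2 than in the other lists. So did Olig1 and the endothelial gene Cldn5 (98.6, 98.4 and 86.0). The microglial gene Spi1 (5.2, 13.9 and 41.2) and the endothelial gene Kdr (44.6, none and 59.9) stood highest in EXT2. The oligodendrocyte gene Mbp had a promoter peak in EXT2 only (20.2) and the microglial gene Csf1r in EXT1 only (18.0). The part of such cells in the AP-1 peaks was not tested.

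The sequence before the annotated start is shown for the genes whose peaks cover it, in whole or in part (Jun, Junb, Fosb), with Jund as the contrast whose peak lies elsewhere. Each run is the 250 bases before the start in RefSeq (GRCm38.p6, the build mm10), 5′ to 3′ on the gene's own strand. Capitals mark matches to the motifs searched on both strands, as spelled out afterwards. The runs lie at chr4:95052223-95052472 (minus strand, Jun), chr8:84978749-84978998 (minus strand, Junb), chr7:19310046-19310295 (minus strand, Fosb) and chr8:70697489-70697738 (plus strand, Jund).
Jun: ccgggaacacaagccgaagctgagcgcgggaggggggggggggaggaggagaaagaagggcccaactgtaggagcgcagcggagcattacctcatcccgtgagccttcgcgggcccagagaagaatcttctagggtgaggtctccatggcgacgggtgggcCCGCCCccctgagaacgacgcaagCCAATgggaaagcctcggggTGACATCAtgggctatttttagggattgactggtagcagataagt
Junb: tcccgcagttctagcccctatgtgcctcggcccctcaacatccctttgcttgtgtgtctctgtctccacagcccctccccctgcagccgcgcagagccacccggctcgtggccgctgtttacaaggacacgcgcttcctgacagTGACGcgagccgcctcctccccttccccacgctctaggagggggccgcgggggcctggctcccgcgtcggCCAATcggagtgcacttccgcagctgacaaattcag
Fosb: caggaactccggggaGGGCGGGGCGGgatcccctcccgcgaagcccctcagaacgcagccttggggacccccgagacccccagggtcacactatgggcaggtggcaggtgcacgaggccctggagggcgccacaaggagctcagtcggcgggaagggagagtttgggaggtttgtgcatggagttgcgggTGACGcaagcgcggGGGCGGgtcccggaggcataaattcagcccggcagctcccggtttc
Jund: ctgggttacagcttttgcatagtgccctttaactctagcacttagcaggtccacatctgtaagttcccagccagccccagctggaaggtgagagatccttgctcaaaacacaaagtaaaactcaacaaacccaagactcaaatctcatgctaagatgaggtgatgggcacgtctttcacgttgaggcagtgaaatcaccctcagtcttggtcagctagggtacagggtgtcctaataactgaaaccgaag

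The motifs searched were TGACTCA (the AP-1 site itself), the cyclic AMP response element TGACGTCA (bound by CREB and ATF proteins), its variant TGACATCA (bound by Jun and ATF dimers) and the shorter form TGACG (contained in the full element). The TATA box TATAAA, the GC box GGGCGG, the box CCAAT and, by name, the CArG box of the serum response factor were searched as well. Jun held TGACATCA from 45 to 38 bases before its start, a match found in 2.86% of the 21263 promoters of coding genes of the same length. It also held CCAAT and a GC box on the opposite strand. Junb and Fosb each held TGACG, at 106 to 102 and 60 to 56 bases before the start, as 20.2% of promoters did. CCAAT, in 35.4% of promoters, was found in Jun and Junb, and GGGCGG, in 42.6%, once in Jun, once in Fosl2 and 3 times in Fosb, where 2 of the matches overlap by 1 base. No window of the 5 genes with a promoter entry (Fosl1 has none) held the AP-1 site, the full cyclic AMP response element, the TATA box or a CArG box as searched. These were found in 4.06%, 1.92%, 11.6% and 1.39% of promoters. The 250 bases of Fosb, Junb, Fosl2 and Jun were 68.8%, 66.4%, 64.4% and 61.2% G and C with 19, 20, 23 and 15 CpG pairs, above the median promoter at 55.6% and 10 pairs. Those of Jund, before the 1 start in the promoter table, were 47.6% with 3 pairs. RefSeq lists 2 Jund transcripts, and whether the other shares that start was not examined. A match is a string of letters and not a measured binding site.

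Of the 6 AP-1 genes 5 had a peak near the start in the control list and in both extinction lists. A promoter peak is one that overlaps the 1 kb either side of the annotated start (for Fosl1, whose strand is in no table used here, either end of the gene). The promoter table covers 17492 coding genes. The rest of the 21887 were, like Fosl1, scored at either end in the shares of coding genes given here. All 6 genes had one in RC3, 5 in EXT1 and 6 in EXT2, where 55.4%, 53.4% and 60.4% of all coding genes had one. Jun, Junb, Jund, Fosb and Fosl2 had one in all 3 lists, as 49.4% of coding genes did. With 500 bp either side of the start the 5 became 3, as the Jund peak fell outside in every list and that of Fosl2 in EXT1. Fosl1 had one in RC3 and EXT2 but not in EXT1, a pattern shared by 4.23% of coding genes. No AP-1 promoter had a peak in the EXT pair without one in RC3 (2.1% of coding genes), or in RC3 alone (0.781%). With 1 RC library against 2 EXT libraries an exact permutation cannot give a p under 0.333, so no test between the groups was made. The authors' peak caller worked on each library separately, so folds over local background and pileups (tags stacked at the summit) belong to their own list, and each peak is placed by its percentile there, 100 being the highest. A higher percentile in one list than in another is no measure of more open chromatin.

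**Figure D1:**
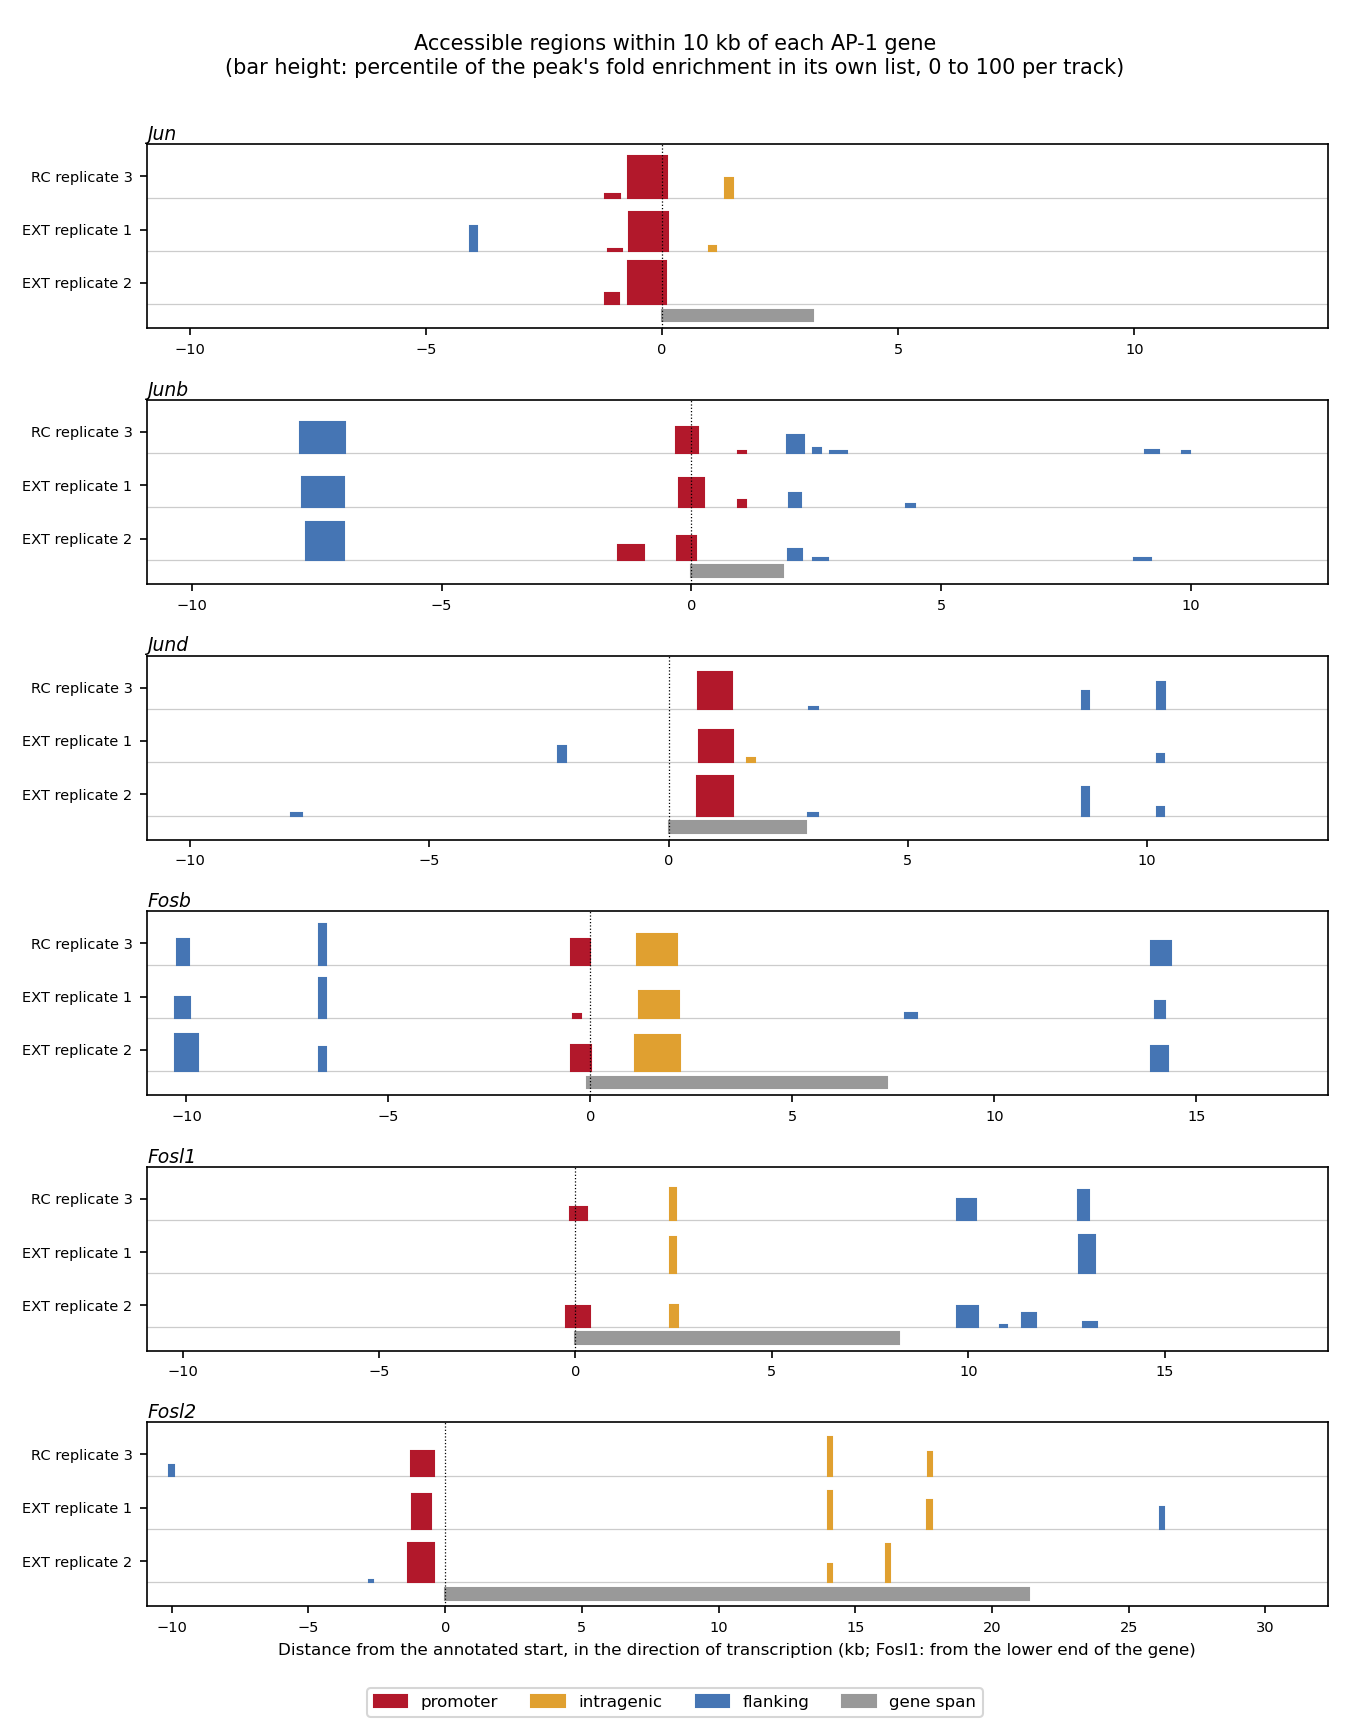
Peaks at the 6 AP-1 genes in RC3, EXT1 and EXT2, drawn along the distance from the annotated start in kb, in the direction of transcription (Fosl1: from the lower end of the gene). Bar width is the peak's width, bar height its percentile by fold enrichment within its own list, and colour its class. In each list the Jun and Junb peaks span the start, the Fosl2 peak lies before it and the Jund peak after it. The Fosb peak reaches the start used in EXT2 and ends 19 bp before it in RC3 and 222 bp before it in EXT1. The Fosb gene span runs past that start, so the RC3 peak overlaps the gene span.

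Jun, the founding member of the Jun group and able to pair with itself, had the highest fold of the 6 promoters. Jun is on chromosome 4, 95049036 to 95052222, minus strand. Its peak ran from 95052123 to 95052935 in RC3, from 95052090 to 95052929 in EXT1 and from 95052132 to 95052935 in EXT2. The whole printed window lay under the peak in all 3 lists, the TGACATCA match included. Fold enrichments were 8.52, 6.48 and 11.7 and pileups 135, 86 and 212 tags. By fold the peak ranked 6912, 11945 and 5412 in its lists, the 92.9th, 85.2nd and 95.6th percentile. Jun thus stood first among the 6 genes in each list. Promoter peaks are strong in general, and counted among the best promoter peaks of coding genes alone its percentiles were 81.7, 71.6 and 83.3. The lncRNA gene Junos has an annotated start close by on the other side, so this peak cannot be assigned to Jun alone. A smaller peak, also in every list, lay about 1.01 kb before the start, with folds of 2.53, 2.23 and 3.24. It stood low, at the 8.7th, 1.2nd and 24.1st percentile.

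Junb, a Jun protein that is often the weaker activator of the group and is itself an immediate early gene, was open across its start. The gene, of 1840 bp, lies on chromosome 8, 84976909 to 84978748, minus strand. The peak ran from 84978614 to 84979054, from 84978505 to 84978996 and from 84978651 to 84979044 in RC3, EXT1 and EXT2. Folds were 4.24, 4.34 and 4.53, the 57.4th, 62.2nd and 52.6th percentile, the smallest spread of percentiles among the 6 genes. Its pileups of 136, 102 and 163 tags stood far higher, at the 98.4th, 98.1st and 97.7th percentile. The peak covered 250, 248 and 250 of the 250 printed bases, so the TGACG and CCAAT matches lay under it in every list. A second region, about 7.45 kb before the start, was wide and in all lists: 886, 831 and 745 bp, with summits within 16 bp of each other. Its folds were 5.11, 4.46 and 7.52, above those of the promoter in each list, at the 70.1st, 64.4th and 82.9th percentile. No annotated gene overlaps it. Another region in all 3 lists lay 2.07 kb past the start, beyond the gene's end, with folds of 3.43, 3.11 and 3.25. A further 2 promoter-class peaks were not in every list: a peak of 150 to 161 bp in the gene body in RC3 and EXT1, and one of 536 bp at 1.25 kb before the start in EXT2 only.

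Jund, a Jun protein made in resting as well as active cells, carried its peak inside the annotated gene. Jund spans chromosome 8, 70697739 to 70700616, plus strand, and RefSeq lists 2 transcripts, of which the promoter table holds 1 start. Whether the other transcript shares that start or begins at the peak was not tested. The printed bases therefore need not be the only Jund promoter. The peak ran from 70698357 to 70699057, from 70698375 to 70699092 and from 70698326 to 70699096, so that it began 618, 636 and 587 bp past that start. None of the 250 printed bases lay under a peak in any list. Its edge fell within 1 kb of the start, while its summits lay 1052, 1055 and 996 bp past it. Folds were 6.23, 4.84 and 8.65, at the 81.4th, 70.3rd and 87.9th percentile. By pileup, with 199, 113 and 310 tags, it was the highest of the 6 promoters in every list, at the 99.5th, 98.7th and 99.6th percentile.

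Fosb, whose splice form known as ΔFosB is long-lived and builds up with repeated activity, had a promoter peak in each list. Fosb lies on chromosome 7, 19302696 to 19310118, minus strand, with its table start at 19310045. Its promoter peak ran from 19310064 to 19310513 in RC3, from 19310267 to 19310477 in EXT1 and from 19310024 to 19310523 in EXT2. In EXT1 it was thus narrower, at 211 bp against 450 and 500 bp, and covered 29 of the 250 printed bases against 232 and 250. The TGACG match lay under the peak in RC3 and EXT2 and outside it in EXT1. RefSeq lists 3 Fosb transcripts, and the gene span runs past the start used here, to 19310118. The RC3 peak thus overlaps the span, and the TGACG match lies within the span. Folds were 4.23, 2.61 and 4.82, and the percentiles 57.3, 9.1 and 57.9 set EXT1 apart from both other libraries, of which 1 is EXT and 1 RC. Inside the gene, 1.33 kb past the start, lay the widest of all AP-1 peaks, a region of 973, 992 and 1095 bp with summits within 17 bp. Its folds of 4.81, 4.17 and 7.14 exceeded those of the promoter in each list, and it stood at the 66.3rd, 59.2nd and 80.8th percentile. This intragenic region and the wide one before Junb were singled out after their values were seen. Upstream regions in all lists lay at 6.66 kb and 10.1 kb before the start. One more shared region, 14.03 kb past the start, overlapped the neighbouring gene Rtn2. Of 6 Fosb regions 5 were in all 3 lists, the most of the AP-1 genes followed. Genome-wide 25.8% of regions were, and 35.3% in the windows of coding genes of like length. The count rests on few regions, and Fos had 4 of 6.

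Fosl2, which encodes Fra-2, had its promoter peak before its start, and no peak was called over the start. It is the longest of the 6 genes, on chromosome 5, 32136472 to 32157840, plus strand. The promoter peak ran from 32135227 to 32136078 in RC3, from 32135248 to 32135968 in EXT1 and from 32135122 to 32136078 in EXT2. It ended 394, 504 and 394 bp before the annotated start, and no base of the 250 before the start was covered in any list. Folds were 4.09, 5.43 and 8.29 with 57, 79 and 164 tags, at the 54.8th, 76.7th and 86.4th percentile. Fosl2 stood higher in both EXT lists than in the RC list, which none of the other 4 genes with a promoter peak in every list did. These are places in separately called lists of unequal length, and 1 RC pool gives no spread of its own. Deep inside the gene lay 3 narrow regions, at 14.02, 16.27 and 17.7 kb past the start, of which the first was in all 3 lists, the next in EXT2 only and the last in RC3 and EXT1.

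Fosl1, which encodes Fra-1, a factor better known from epithelial and stimulated cells, had the lowest fold of the 6 promoters in both lists that hold its peak. It lies on chromosome 19, 5447698 to 5455938. The peak at the lower end of the gene ran from 5447556 to 5447987 in RC3 and from 5447467 to 5448074 in EXT2, with summits 1 and 4 bp from that end. Folds were 3.04 and 4.16 with 32 and 46 tags, the 28.2nd and 45.7th percentile. EXT1 held no peak there. With all lists held to the length of the shortest, that of EXT1, the peak was still in RC3 and EXT2. A region 2.52 kb into the gene was in all 3 lists, with folds of 5.17, 5.74 and 4.30. The other regions of the window sit nearer to neighbouring genes: a region near the start of Fibp was in all 3 lists, while of those near the start of Ccdc85b 1 region was in RC3 and EXT2 and 1 in EXT2 only.

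**Figure D2:**
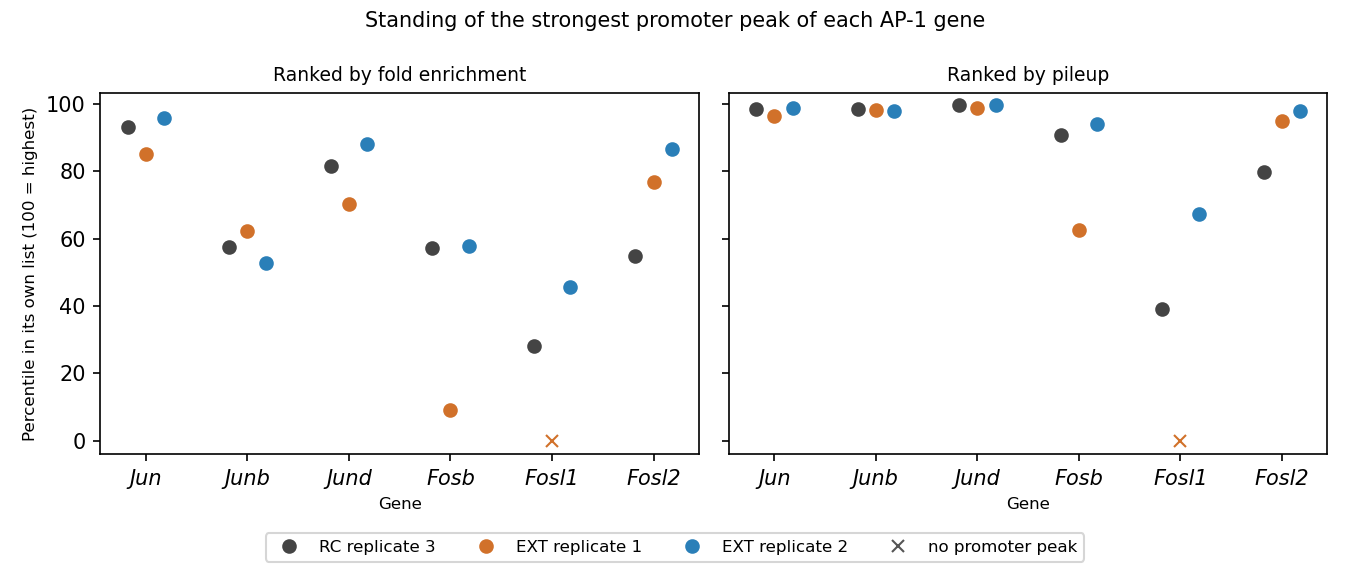
Percentile of the strongest promoter peak of each AP-1 gene within its own list, ranked by fold enrichment (left) and by pileup (right). Each point is 1 library, and a cross marks Fosl1 in EXT1, which had no promoter peak. Jun is highest by fold and Jund by pileup in each list, and Junb stands near the middle by fold but at the 97.7th percentile or above by pileup.

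The order of the promoters differed between fold and pileup. By fold, the mean percentile over the 3 lists was 91.3 ± 5.41 for Jun, 79.9 ± 8.91 for Jund, 72.6 ± 16.2 for Fosl2, 57.4 ± 4.78 for Junb and 41.4 ± 28.0 for Fosb (SD, n = 3 libraries of both groups), and Fosl1 averaged 37.0 over its 2 lists. Neighbours in this order overlapped in range, while the range of Jun lay wholly above those of Junb, Fosb and Fosl1, and that of Jund too. By pileup the means were 99.3 ± 0.51 for Jund, 98.0 ± 0.348 for Junb, 97.8 ± 1.39 for Jun, 90.8 ± 9.63 for Fosl2 and 82.4 ± 17.3 for Fosb, and the ranges of Jun and Junb overlapped. The median promoter percentile by fold was 57.3, 70.3 and 72.1 in RC3, EXT1 and EXT2, and among the best promoter peaks of coding genes 29.3, 46.2 and 41.9. The EXT1 medians are over 5 genes, without Fosl1, which stood lowest in the other lists. By fold, the middle AP-1 promoter thus stood below the middle of the open coding promoters in each list, with Jun well above it. The comparison with open coding promoters was not made by pileup or −log10 q.

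Across the gene spans and 10 kb on each side, the 3 lists held 28, 25 and 28 peaks, of which 8, 7 and 8 were at promoters, 5, 6 and 4 elsewhere in a gene, and 15, 12 and 16 flanking. A single AP-1 gene had 3 to 8, 2 to 6 and 2 to 6 peaks, with medians of 4, 4 and 5. For the 9823 coding genes of 1840 to 21369 bp, the range of the members' lengths, the medians were 2, 2 and 3. Their lower and upper quartiles were 1 and 4, 1 and 3, and 1 and 4. Peaks that overlapped by at least 1 bp were joined into 41 regions. Of these 16, or 39%, were in all 3 lists, beside 25.8% of the 168512 regions of the whole genome and 35.3% of the regions in the windows of the genes of like length. The share thus lay near that of other gene windows. Promoter regions were in all lists in 6 of 9 cases, intragenic ones in 3 of 8 and flanking ones in 7 of 24. Shares by class were not obtained for other genes, so these counts show nothing particular to the AP-1 genes.

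**Figure D3:**
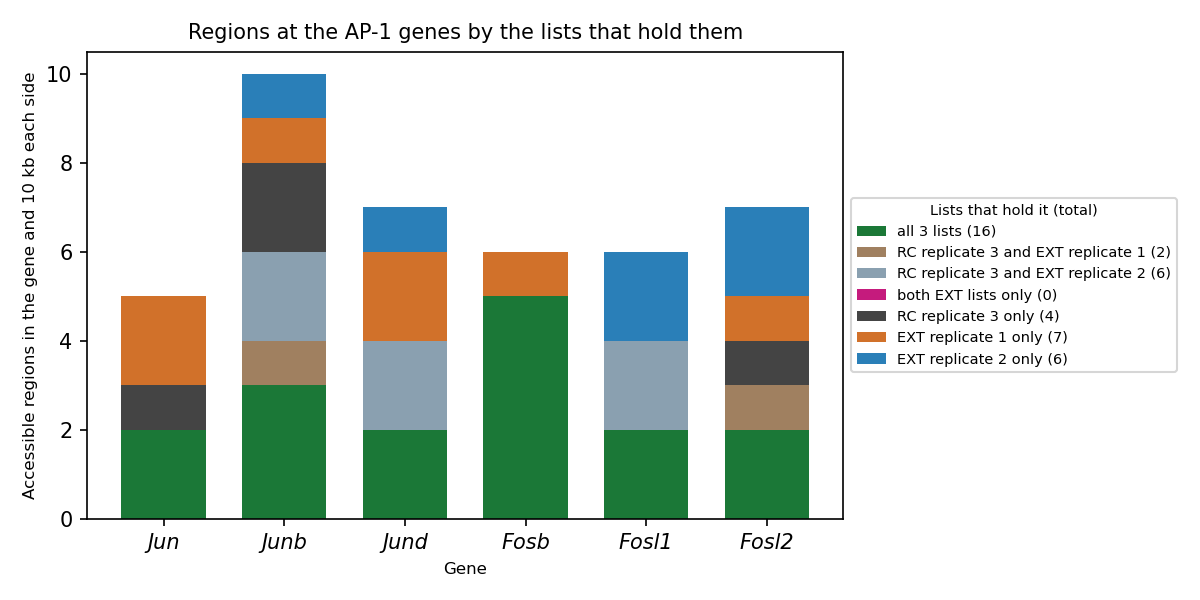
Number of accessible regions in each AP-1 gene and 10 kb either side (bar height), split by the lists that hold them, with totals in the key. The 16 regions in all 3 lists are the largest class, 5 of them at Fosb. No region is in both EXT lists only, where the share in windows of like genes would give 1.69.

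No AP-1 region was in the lists of both extinction libraries while missing from that of the control. Such regions numbered 0 of 41, where they made up 4.34% of all regions and 4.13% of those in windows of like genes. The latter share would give 1.69 regions among 41. The count of 0 lies near that and shows nothing particular to the AP-1 genes. RC3 shared 6 regions with EXT2 alone and 2 with EXT1 alone, or 14.6% and 4.88%, beside 13.4% and 7.14% genome-wide and 12% and 6.44% in windows of like genes. Regions in RC3 only numbered 4, or 9.76%, beside 10.7% genome-wide and 9.2% in windows of like genes. Those in EXT1 only numbered 7, or 17.1%, beside 9.38% and 8.7%, and those in EXT2 only 6, or 14.6%, beside 29.2% and 24.2%. The 4 control-only regions were weak or narrow. They lay 10.03 kb before Fosl2 (185 bp, fold 2.96), 1.45 kb into Jun (160 bp, fold 3.54), and 9.91 kb and 3.02 kb past the start of Junb (150 and 335 bp, folds 2.28 and 1.72), the first of these near the start of Prdx2. Of the 4 only the one in Jun, with a −log10 q of 12.9, was left in lists limited to −log10 q of at least 5.

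Many AP-1 peaks were no wider than 161 bp, 1 bp above the most common width of each list and close to 150 bp, the length to which the authors extended each tag. Such narrow peaks made up 10 of 28, 11 of 25 and 6 of 28 peaks in RC3, EXT1 and EXT2, or 35.7%, 44.0% and 21.4%, beside 37.2%, 35.0% and 28.3% of the whole lists. Of all 27, 2 were at promoters, 11 elsewhere in a gene and 14 flanking. Of 15 regions made of narrow peaks alone 3 were in all lists, against 12 of the 24 with no narrow peak, a split not made for the regions of other genes. Of these 3, the region 6.66 kb before Fosb, had the same bounds (19316592 to 19316752) in every list and folds of 7.43, 7.04 and 4.62. The others, within Fosl2 (32150454 to 32150613, folds 6.75, 6.43 and 3.93) and 10.28 kb past the start of Jund (folds 4.35, 2.89 and 3.03) began at the same base in each list, as did the Fosl1 intragenic region. The peak caller kept all duplicates among the tags it was given, and their part in these peaks was not tested. The 15 peaks of at least 700 bp, by contrast, formed 5 regions that were this wide in each list: the promoters of Jun, Jund and Fosl2, the Fosb intragenic region and the region before Junb. All of them stood at the 54.8th percentile or above.

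**Figure D4:**
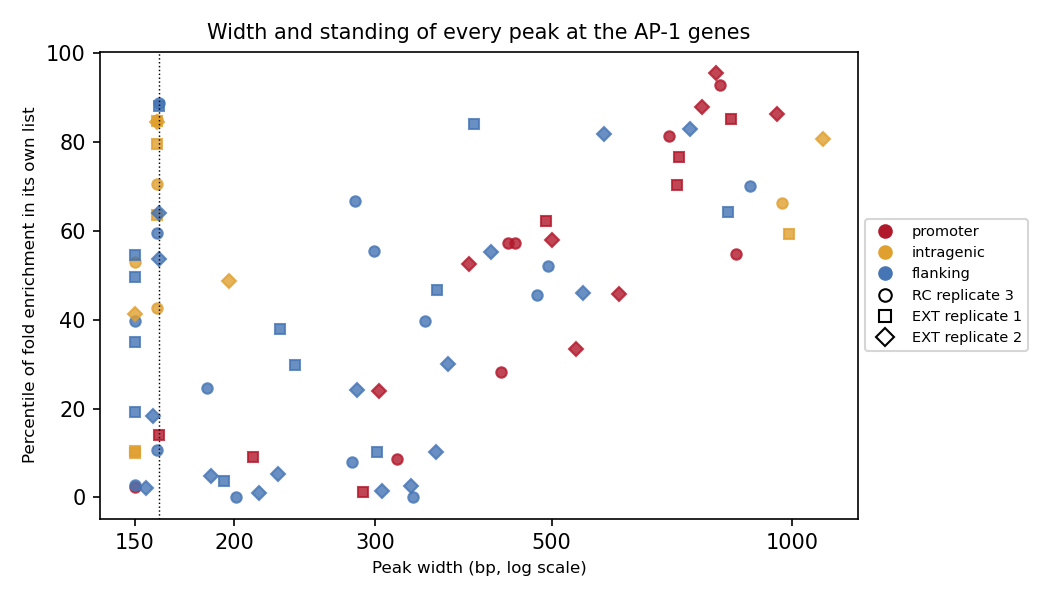
Width in bp (log scale) and percentile by fold enrichment within its own list for each of the 81 AP-1 peaks, with colour for the class and marker shape for the library. The dotted line is at 161 bp. The 27 narrow peaks span the 2.0th to the 88.9th percentile, and the 15 peaks of 700 bp or more lie at the 54.8th or above.

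Fos, the family member outside this group, had a promoter peak in all 3 lists, with folds of 3.69, 3.81 and 4.21 at the 46.4th, 52.2nd and 46.3rd percentile, below Jun in each list. Of its 6 regions 4 were in all lists, and 2 were in EXT2 only.

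Genes of other leucine zipper proteins, among them partners of Jun and Fos, and of kinases and factors upstream of AP-1 were taken from lists set out by role. Of 18 further leucine zipper genes, Fos among them, 13, 12 and 13 had a promoter peak in RC3, EXT1 and EXT2, and 12 had one in all lists, beside the 55.4%, 53.4% and 60.4% of all coding genes and the 49.4% in all lists. By mean percentile over the 3 lists the highest were Nfe2l1, a stress-response factor, at the 95.8th, 92.1st and 97.9th percentile, and Atf3, a stress- and injury-induced partner of Jun, at the 95.9th, 92.7th and 94.6th. Maf, another leucine zipper gene, stood above both in RC3 and EXT1 and below both in EXT2 (97.0, 98.8 and 83.1), and is named after its values were seen. Batf, Batf2, Batf3, Nrl and Nfe2l2 had none in any list. The Batf genes act mainly in immune cells and Nrl in photoreceptors. Why these genes and Nfe2l2 had no promoter peak was not tested. Of 16 regulators upstream of AP-1, 15 had a promoter peak in all 3 lists, beside 49.4% of coding genes. These included the JNK genes Mapk8, Mapk9 and Mapk10 and the serum response factor gene Srf. Map2k1, a kinase of the MAP kinase cascade, stood at the 94.4th, 94.4th and 98.6th percentile, and Elk3 had no promoter peak in any list.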

How the data were processed

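The authors' peak lists of 3 ATAC-seq libraries were used (RC replicate 3 and EXT replicates 1 and 2, here RC3, EXT1 and EXT2), grouped by sample titles. For EXT2 the file name and the title give different replicate numbers (the file name's is 3, as for RC3), and the title was followed. The lncRNA capture libraries of the series were not used here. The other 2 lists, as held here, reach none of the 6 genes. Per the file headers, peaks were called per library with MACS 2.2.4, with no control, a shift of -75 bp, an extension of 150 bp, all duplicates among the input tags kept and a q-value cutoff of 0.05. Reads were assigned to mm10, per the submitters' processing notes; the aligner of these libraries and any earlier removal of duplicates are not given in the sources used here. The deposited pileup is a coverage signal in whole tags, the deposited fold enrichment is its ratio to local background, and each deposited −log10 q value (and −log10 p, unused) rests on the same background. All are the authors' values for each peak. The lists hold no counts outside peaks, so the depth behind a region without a peak is unknown. Gene spans came from the RefSeq table of GRCm38.p6 and starts from its promoter table (5 of the 6 genes matched). Exon bounds were not used here.

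Windows, classes, percentiles (ties averaged) and regions were computed in Python 3.11.15 with pandas 2.3.3, with functions tested on made-up peaks. Every AP-1 gene was named, with its promoter peaks, its highest-ranked other region in all lists and its control-only regions; of other lists, genes with no promoter peak and the 2 highest, of which some are not reported here. The members, lists and rules were chosen with earlier results of these data known. Alternatives were stricter and equal-length lists, other windows and overlaps, summits, other ranks and leaving out each EXT library. Leaving out narrow peaks, the 700 bp limit and the comparison with genes of like length were added after seeing the data. Libraries are pools of mice, and there was no test between groups.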

Additional observations from a re-analysis of the deposited data

How the results depend on the processing

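The number of AP-1 genes with a promoter peak in all 3 lists, 5 as reported, was 3 with a window of 500 bp either side of the start, where Jund dropped out of every list and Fosl2 out of EXT1, and 4 with stricter lists or with summits. EXT1 alone had 5 such genes, or 3 with that window. Leaving out EXT1 or EXT2 gave 5 to 6 genes. The 16 regions in all lists became 11 to 22 over 9 alternatives, and 18 to 22 when 1 EXT library was left out. The count of 0 regions in both EXT lists only was 1 with 20 kb on each side and 0 in the other settings that kept both EXT lists; with a single EXT list left, which then stands alone, it was 6 to 7. The 4 regions in RC3 only became 1 in stricter lists, 2 with 5 kb on each side, 2 without peaks of 161 bp or less and 10 without EXT2. Leaving out those narrow peaks lowered the peaks in the windows from 28 to 18 in RC3 and from 25 to 14 in EXT1, and the 41 regions to 26. By fold the median promoter percentile was 57.3, 70.3 and 72.1 (RC3, EXT1, EXT2), with the EXT1 median over 5 genes. It rose to 94.5, 96.2 and 97.7 by pileup and to 85.2, 89.9 and 94.0 by −log10 q. The cause of the rise was not tested. No paired analysis was possible because the RC and EXT lists that reach these genes share no replicate number in their titles and no test was made; in the file names EXT2 carries the number 3, as RC3 does. Sequencing depth differs between the libraries, and the library with the fewest tags has the longest list.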

Other observations

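Beyond the 10 kb window, Fosb had the only region within 20 kb of any of the 6 genes that the EXT pair shared and RC3 lacked. It lay on chromosome 7, from 19323852 to 19324008 in EXT1 (157 bp, fold 2.74, 14.1st percentile) and from 19323726 to 19323913 in EXT2 (188 bp, fold 2.05, 0.5th percentile). The EXT2 peak was among the weakest of its list, and the EXT1 peak stood low in its own.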
